A study of Rattus norvegicus with 52 samples.

Results

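The transcriptome of sorted basal/myoepithelial cells (Cd24+ Cd29HIGH) of female Cdkn1b+/+ rats bred onto the ACI strain was compared between 6 weeks and 4 weeks of age. The libraries are those whose labels give this genotype, this cell type and one of these ages. They are 6 of the 52 samples of the series, 3 of 6 weeks (RM, LU and RU, after the letters in their titles) and 3 of 4 weeks (RU, LUD and LUU), and the library called RU below is the one of 6 weeks unless 4 weeks is named. The ages are those of the labels, and the study describes each age group as a range, so they are nominal. The titles carry further numbers, whose meaning the labels do not give and which were not used. The series was made to study loss of Cdkn1b, which encodes the cyclin-dependent kinase inhibitor p27, in the rat mammary gland. Its Cdkn1b-/- rats carry small deletions in the first coding exon, in either of a pair of lines. The deletions were made in outbred Sprague-Dawley rats and backcrossed to ACI. Rats of both genotypes came from crosses of heterozygous carriers, at an early or a later backcross generation. Either line and either generation can have contributed to a group, and the labels do not say which. The labels name no agent for the rats used here, and both ages are described as prepubertal by the labels. The small amounts of RNA from each sort were amplified with the SMARTer low-input kit and sequenced as single-end reads. Values are counts of reads per gene, given below as CPM (a gene's count relative to its library's total, scaled with edgeR's TMM factors) and tested between ages with edgeR's quasi-likelihood test, where a gene was called when its p adjusted by Benjamini-Hochberg over all genes tested was under 0.05.

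Basal cells form the outer layer of the mammary duct. They lie on the basement membrane, carry the keratins Krt5 and Krt14 and the transcription factor Tp63, and contain a smooth-muscle-like contractile apparatus that answers to oxytocin. Several regulators come up in the results. Nrf2 (Nfe2l2) is held in the cytoplasm by Keap1 until oxidants or electrophiles release it, and then turns on genes of glutathione synthesis, quinone reduction and iron storage. Atf4 is made when phosphorylation of the initiation factor eIF2 slows protein synthesis, and turns on amino acid transporters, amino acid synthesis and tRNA synthetases. Immediate early genes, such as Fos and Egr1, are transcribed within minutes of a stimulus.

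The basal identity given by the labels was seen in the libraries. Krt5 had 1289, 1373 and 1095 CPM in the 4-week libraries RU, LUD and LUU and 340.2, 412 and 339 CPM in the 6-week libraries RM, LU and RU, while the luminal libraries of the same ages had between 1.15 and 8.44 CPM. Krt14 had 4877, 3655 and 3419 CPM at 4 weeks and 2355, 2748 and 1867 CPM at 6 weeks. The ages differed in depth. Between 18277080 and 20596627 reads were counted on genes per library at 4 weeks (44.4% to 50.3% of the reads listed), and between 7985619 and 16390460 at 6 weeks (23.0% to 42.1%), so depth cannot be told apart from age. Nothing in the labels says whether replicates are single animals, although the titles carry what look like animal tags, so p-values measure the spread between these samples.

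Library RU stood apart from the other libraries. It had the fewest counts and the largest share of reads outside annotated genes (30.8%, against 10.8% to 26.3% in the other 5 libraries), and its rank correlation with the others lowered the range of Spearman's rho within 6 weeks to between 0.806 and 0.943 over genes, against 0.946 to 0.973 within 4 weeks. Genes of granulocyte precursors were high in it. Myeloperoxidase (Mpo) had 793 CPM in RU, 2.77 in RM, 13.6 in LU and at most 0.402 at 4 weeks. The summed CPM of the list of such genes came to 4892 in RU, 72.1 in RM, 144 in LU and 15.7 to 38.7 at 4 weeks. Summed myeloid markers came to 1491 in RU and to between 95.0 and 185 in the other 5 libraries. Of the 9 tested 0 were called between the ages (against 8.28% of all genes), a test that says little of a rise in 1 library. Genes of salivary gland secretions were high in RM and RU, with a summed CPM of 460.0 and 379, against 16.9 in LU and 6.24 to 10.4 at 4 weeks. Eif2s3y, a Y-linked gene, had 132 counts in RU and at most 1 in each of the other libraries examined, while Ddx3y, also Y-linked, had 0 counts in RU. What these reads contribute to the differences below was not tested. Counts over all genes and for many of the lists are therefore given with and without RU, and other values include RU unless said otherwise.

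Of 11091 genes tested, 918 (8.28%) differed between the ages, 494 (4.45%) being higher and 424 (3.82%) lower at 6 weeks. Without RU, 2857 of 11509 genes were called (24.8%), 1275 higher (11.1%) and 1582 lower (13.7%), and all 918 genes were among them with the same sign. Leaving out any other library lowered the count, most of all LUD of 4 weeks, without which 9 genes were called, and LUU of 4 weeks, without which 35 were called. Each of the 918 genes kept its sign in each of these 6 fits, but many lost their call. Of 104 called genes followed through the fits, nearly all of them named below, 72, 99 and 88 were no longer called without RU, LUD and LUU of 4 weeks, 34 and 42 without RM and LU of 6 weeks, and 0 without RU of 6 weeks. The median log2 fold change over all genes tested was -0.06, and the groups did not overlap, with 6 weeks higher, in 15.6% of genes and, with 6 weeks lower, in 23.8%.

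**Figure D1:**
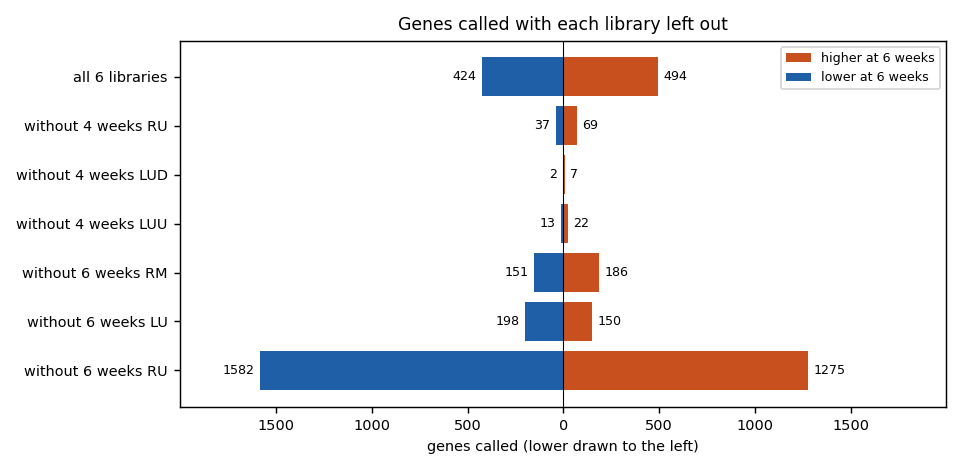
Number of genes called in wild-type basal cells (x axis; higher at 6 weeks to the right, lower to the left) with all 6 libraries and with each library left out in turn (y axis). Counts ran from 7 higher and 2 lower without LUD of 4 weeks to 1275 higher and 1582 lower without RU of 6 weeks.

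**Figure D2:**
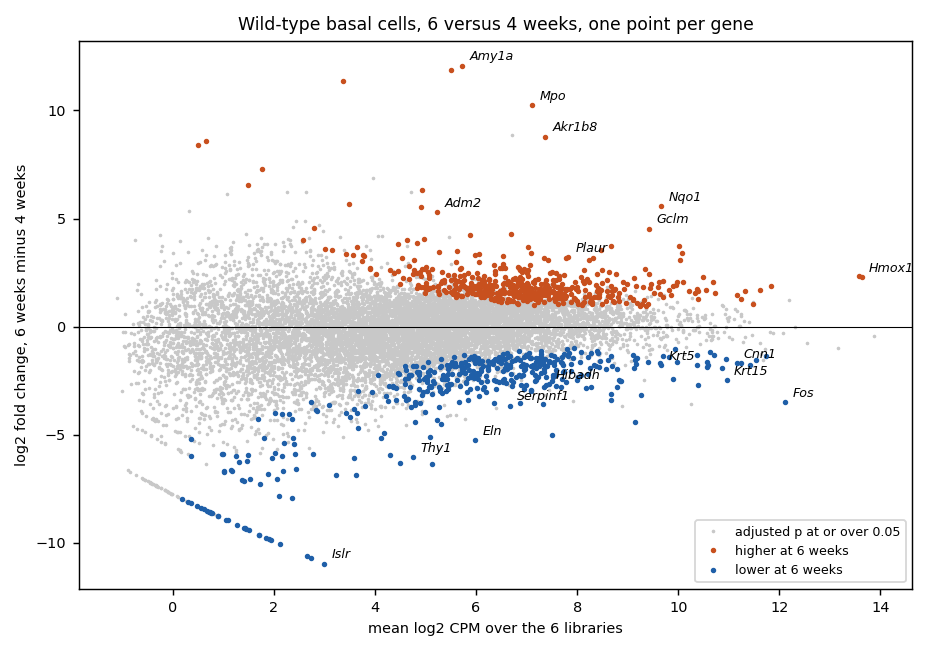
Log2 fold change, 6 weeks minus 4 weeks (y axis), against the mean log2 CPM over the 6 libraries (x axis), 1 point per gene tested, with called genes in colour (494 higher, 424 lower). The slanted lines of points at the lower left are genes with 0 or very few counts in the 6-week libraries, whose fitted fold change depends on the prior count.

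The genes with the clearest rise encode enzymes of the antioxidant response. Nqo1, a quinone reductase and a textbook target of Nrf2, had 38, 31.6 and 30 CPM in the 4-week libraries and 1222, 2130 and 1391 CPM in the 6-week libraries. All 3 libraries of 6 weeks were far above all of 4 weeks, with a log2 fold change of 5.58 (SE 0.34, adjusted p = 0.00133), and of 5.66 without RU. Akr1b8, an aldose-reductase-like enzyme that reduces reactive aldehydes, had 1.08, 0.855 and 0.26 CPM at 4 weeks and 431, 231 and 318 CPM at 6 weeks, a log2 fold change of 8.80 (SE 0.62, adjusted p = 0.00147). It went from a level near detection to one at which it was among the well expressed genes. Gclm, the modifier subunit of the enzyme that limits glutathione synthesis, had 60.2, 51.8 and 58.7 CPM at 4 weeks and 1432, 934 and 1519 CPM at 6 weeks, with a log2 fold change of 4.53 (SE 0.32, adjusted p = 0.00147). These fold changes moved by less than their standard errors without RU.

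Other genes of the same response moved in the same direction. Slc7a11, the subunit that brings cystine into the cell for glutathione, had 36.2, 55.6 and 76.7 CPM at 4 weeks and 698, 568 and 667 CPM at 6 weeks (log2 fold change 3.53, SE 0.36, adjusted p = 0.00579). Heme oxygenase Hmox1, which degrades heme, was abundant at both ages, with 3593, 4484 and 4868 CPM at 4 weeks and 19681, 18564 and 24089 CPM at 6 weeks (log2 fold change 2.28, SE 0.29, adjusted p = 0.009). The groups did not overlap for either gene. The ferritin chains Fth1 and Ftl1, which store iron, had log2 fold changes of 2.33 (adjusted p = 0.0137) and 1.89 (adjusted p = 0.0271), but they have near-identical copies in the genome, and reads that aligned to more than 1 place were not counted, so their levels are uncertain. A list of 41 Nrf2 targets was written after values were seen, so its counts support nothing by themselves. Of 39 tested, 21 were higher (against 4.45% of all genes) and 2 lower (against 3.82%). The median log2 fold change was 1.66 beside -0.06 over all genes. Without RU, 25 were higher and 3 lower (against 11.1% and 13.7% of all genes) and the median was 1.42. Also called higher were Gclc (log2 3.75), the catalytic partner of Gclm, Srxn1 (3.76), which repairs oxidised peroxiredoxins, Txnrd1 (1.95), which reduces thioredoxin, Gpx2 (3.37), a glutathione peroxidase, Osgin1 (3.43) and the autophagy adaptor Sqstm1 (1.58). Ephx1 (-2.87) and Mgst1 (-1.60), enzymes of xenobiotic metabolism in the same list, were lower. The mRNA of the factor itself, Nfe2l2, had a mean of 1203 CPM ± 181 (SD, n = 3) at 4 weeks and 1459 CPM ± 259 (SD, n = 3) at 6 weeks (log2 0.29, adjusted p = 0.53), and that of Keap1 did not pass the test either (log2 0.66, adjusted p = 0.508).

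The promoters of the 3 leading genes are shown because Nrf2 acts on a known DNA word, the antioxidant response element. They run from 250 bases before to 50 bases after the gene start, 5′ to 3′ on the strand of the gene, from RefSeq on the assembly GRCr8, and capitals mark a match, on either strand, to the core TGACNNNGC.
Nqo1, chr19:52220218-52220517, minus strand: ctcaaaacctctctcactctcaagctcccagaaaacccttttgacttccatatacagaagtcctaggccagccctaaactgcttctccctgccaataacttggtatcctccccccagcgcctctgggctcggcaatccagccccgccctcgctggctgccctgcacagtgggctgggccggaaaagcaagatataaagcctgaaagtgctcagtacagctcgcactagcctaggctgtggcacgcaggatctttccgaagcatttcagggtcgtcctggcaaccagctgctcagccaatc
Gclm, chr2:213031885-213032184, plus strand: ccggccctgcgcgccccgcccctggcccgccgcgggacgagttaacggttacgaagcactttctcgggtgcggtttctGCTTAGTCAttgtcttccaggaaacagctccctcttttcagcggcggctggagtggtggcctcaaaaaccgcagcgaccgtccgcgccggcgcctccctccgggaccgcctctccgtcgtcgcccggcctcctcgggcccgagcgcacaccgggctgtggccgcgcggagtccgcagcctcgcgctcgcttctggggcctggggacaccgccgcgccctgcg
Akr1b8, chr4:63964171-63964470, plus strand: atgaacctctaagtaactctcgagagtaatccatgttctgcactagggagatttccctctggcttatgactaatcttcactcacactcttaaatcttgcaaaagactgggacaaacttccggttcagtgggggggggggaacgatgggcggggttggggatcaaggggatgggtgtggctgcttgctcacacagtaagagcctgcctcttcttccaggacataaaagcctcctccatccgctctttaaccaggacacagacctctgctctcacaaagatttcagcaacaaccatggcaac
The core matched once, 172 bases before the start of Gclm on the opposite strand, and not in the windows of Nqo1 or Akr1b8. It matched in 14.8% of the 9033 tested genes that had a promoter in the table, in 8 of 34 promoters of the Nrf2 list (23.5%) and in 3 of the 20 promoters of its called members (15.0%). The share among called members was thus close to that of all genes in these 300 bases, and regions farther away were not searched.

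A second group that was higher at 6 weeks serves amino acid supply and charging of tRNA. Adm2 (adrenomedullin 2), a peptide hormone gene that Atf4 induces, had 1.32, 1.71 and 2.5 CPM at 4 weeks and 44.1, 85.5 and 88.1 CPM at 6 weeks (39.5-fold higher, SE 0.54 on the log2 scale, adjusted p = 0.00579). Slc6a9, a glycine transporter, had 2.78, 3.37 and 4.58 CPM at 4 weeks and 51.7, 65.8 and 57.6 CPM at 6 weeks (log2 4.04, SE 0.46, adjusted p = 0.00734). In both the lowest 6-week library was more than 10 times the highest 4-week library. Eif4ebp1, which binds the cap-binding factor eIF4E and holds back initiation, had 63.8, 67.5 and 57.7 CPM at 4 weeks and 330.3, 607 and 760.0 CPM at 6 weeks (log2 3.18, SE 0.36, adjusted p = 0.00734). Slc3a2, the heavy chain shared by several amino acid exchangers, including the one that Slc7a11 forms, was abundant at both ages and changed less, from 2005, 1828 and 1730 to 3463, 3784 and 4245 CPM (log2 1.06, SE 0.24, adjusted p = 0.0354).

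Of 47 tested members of a list of Atf4 targets and tRNA synthetases, 28 were higher and 1 was lower (against 4.45% and 3.82% of all genes). Their median log2 fold change was 1.73. Without RU 33 were higher and 1 lower (against 11.1% and 13.7% of all genes), with a median of 1.89. This list was written after values were seen, so its counts support nothing by themselves. The called members included Asns, which makes asparagine (log2 2.28), Psat1 (1.80) and Psph (2.49) of serine synthesis, Shmt2 (2.61) and Mthfd2 (3.06) of mitochondrial one-carbon metabolism, the pseudokinase Trib3 (2.84), the hormone Fgf21 (2.81) and the arginine transporter Slc7a1 (2.36). Among tRNA synthetases, Cars, Gars, Iars, Yars, Sars and Lars had log2 fold changes between 2.03 and 3.10, all adjusted p at most 0.028, while Dars was lower (-1.25, adjusted p = 0.0379). The mRNA of Atf4 had a mean of 1659 CPM ± 483 (SD, n = 3) at 4 weeks and 1671 CPM ± 255 (SD, n = 3) at 6 weeks (log2 0.03, adjusted p = 0.964), and Ddit3 (1.73, adjusted p = 0.12) and Chac1 (0.64, adjusted p = 0.398), a transcription factor and a glutathione-degrading enzyme of the same response, did not pass the test. Cebpb, a C/EBP factor and one of the most abundant of the list, had 2915, 3612 and 2667 CPM at 4 weeks and 2107, 1791 and 1738 CPM at 6 weeks, which did not pass either (log2 -0.69, adjusted p = 0.127).

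Atf4 binds with a C/EBP partner to a composite element, here searched for as TGATGNAA on both strands. On one strand this string and the antioxidant core cannot start at the same base. It was found in 2.04% of the promoters of tested genes, in 5.00% of those of all called higher genes with a promoter, in 12 of 43 promoters of the Atf4 list (27.9%) and in 10 of 25 promoters of its called members (40.0%). The list was made of genes taken as Atf4 targets and of tRNA synthetases, after values were seen. Its higher share can therefore come from how the list was made. The windows of 6 of the 10 called members with a match are shown, with the match in capitals. Each has 40 bases, 5′ to 3′ on the strand of the gene (RefSeq, GRCr8), so that the shared letters can be seen.
Slc7a1, chr12:11664442-11664481, plus strand: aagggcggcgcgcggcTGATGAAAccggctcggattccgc
Trib3, chr3:161275531-161275570, minus strand: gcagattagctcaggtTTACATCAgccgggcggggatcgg
Fgf21, chr1:105221496-105221535, minus strand: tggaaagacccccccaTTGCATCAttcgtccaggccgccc
Tars, chr2:62114806-62114845, minus strand: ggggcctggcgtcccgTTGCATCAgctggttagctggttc
Iars, chr17:15193653-15193692, minus strand: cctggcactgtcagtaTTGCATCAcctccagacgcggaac
Mars, chr7:65023747-65023786, minus strand: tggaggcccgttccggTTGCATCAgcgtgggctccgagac
In Slc7a1 the match lies on the strand of the gene and in the others shown on the opposite strand. Among those not shown, Yars and Nars matched on the strand of the gene, and Cars and the first match of Aars on the opposite strand. The cores of Fgf21, Tars, Iars and Mars are the same 8 letters, and that of Trib3 has another base where the searched string has N. A match is a description of sequence and not evidence that the factor was bound.

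Genes that build ribosomes were higher in the largest share of any list. This list was written after values were seen, so its rank and counts support nothing by themselves. Ppan, a nucleolar factor for the large subunit, had 52.5, 53.4 and 65.9 CPM at 4 weeks and 341, 335 and 289 CPM at 6 weeks (5.66-fold higher, SE 0.27 on the log2 scale, adjusted p = 0.00681). Bysl and Nob1, which act in maturation of the small subunit, were higher by a log2 of 2.52 (SE 0.28) and 2.21 (SE 0.26), both with an adjusted p of 0.00734, with 4-week libraries between 33 and 76.9 CPM and 6-week libraries between 172 and 369.9 CPM. Noc4l, another factor of small subunit assembly, had 15.9, 22.4 and 27.2 CPM at 4 weeks and 157, 153 and 174 CPM at 6 weeks. Among the abundant nucleolar proteins, nucleolin (Ncl) had 612, 501 and 730.3 CPM at 4 weeks and 1782, 1935 and 2368 CPM at 6 weeks (log2 1.74, SE 0.27, adjusted p = 0.0137), and Nop56, of the box C/D particle, had 388, 371 and 516 against 1175, 1616 and 1310 CPM (log2 1.69, SE 0.27, adjusted p = 0.014). All groups named here were apart. Of 72 ribosome biogenesis genes tested, 56 were higher (against 4.45% of all genes) and 0 lower. All 72 had a log2 fold change above 0, and the median was 1.76. Without RU 67 were higher (against 11.1% of all genes) and 0 lower, with a median of 1.71.

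The ribosomal proteins themselves behaved differently in the test. Of 80 cytosolic ribosomal protein genes tested none passed in either direction (against 4.45% of all genes higher and 3.82% lower). The log2 fold change was above 0 in 78 of them. Their median log2 fold change of 0.72 rested in part on RU, whose summed CPM of 39374 stood against 12929 to 22710 in the other wild-type basal libraries of these ages. The median was 0.24 without RU, when 0 were higher and 1 was lower (against 11.1% and 13.7% of all genes). Many of these genes have near-identical copies elsewhere in the genome, so that their counts are uncertain.

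Some initiation factors, proteasome subunits and chaperones were higher, while most members of their lists did not pass the test. Over all genes 4.45% were higher and 3.82% lower, or 11.1% and 13.7% without RU. Of 51 initiation factor genes, 10 were higher and 1 lower (16 and 2 without RU), including Eif1ad (log2 3.19), Eif2b3, a subunit of the exchange factor of eIF2 (2.62), and Eif2s1, its alpha subunit, which had 184, 172 and 208 CPM at 4 weeks and 489, 701 and 557 CPM at 6 weeks (log2 1.64, SE 0.26, adjusted p = 0.0137). The one that was lower was the double-stranded RNA kinase Eif2ak2 (-1.47). The most abundant of the factors, Eif5a, had 1532, 1946 and 1672 CPM at 4 weeks and 2240, 3217 and 3050 CPM at 6 weeks and did not pass (log2 0.73, adjusted p = 0.119). Of 37 proteasome subunits, 6 were higher (against 4.45% of all genes) and 0 lower, with a median log2 fold change of 0.91, and the groups did not overlap with 6 weeks higher in 24 (against 15.6% of all genes). Without RU 11 were higher and 1 was lower, with a median of 0.61. Psmd7, of the regulatory lid, had 189, 188 and 180.4 CPM at 4 weeks and 438, 517 and 483 CPM at 6 weeks (log2 1.38, SE 0.24, adjusted p = 0.016). Of 31 heat shock and folding genes, 9 were higher and 0 lower, among them 4 subunits of the CCT chaperonin (Cct2, Cct3, Cct4 and Cct5) and the mitochondrial chaperonin Hspd1, which had 242, 263 and 260.0 CPM at 4 weeks and 478, 634 and 607 CPM at 6 weeks (log2 1.18, SE 0.25, adjusted p = 0.0274). Without RU 11 genes of this list were higher and 3 lower, and its median moved from 0.38 to 0.24.

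Some secreted and surface proteins that act outside the cell were also higher. List counts here stand beside the 4.45% of all genes that were higher and the 3.82% that were lower. Plaur, the receptor that holds urokinase at the cell surface, had 44, 40 and 49 CPM at 4 weeks and 325, 484 and 411 CPM at 6 weeks (log2 3.21, SE 0.29, adjusted p = 0.00353), and Mmp3 (stromelysin), a matrix-degrading protease, had 29.5, 31 and 37.7 against 287, 387 and 198 CPM (log2 3.16, SE 0.34, adjusted p = 0.00681). Both had groups that were well separated. Of 23 matrix proteases and their inhibitors, 4 were higher, the others being Mmp10 (log2 3.09) and the lysosomal protease Ctsl (1.65), and 5 were lower, Mmp2 (-3.11), Mmp15 (-3.78), Adamts18 (-2.70), Ctsk (-5.15) and the inhibitor Timp2, which had 746, 544 and 527 CPM at 4 weeks and 169, 135 and 159 CPM at 6 weeks (log2 -1.95, SE 0.27, adjusted p = 0.01).

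Areg and Nrg1, ligands of EGF receptor family members, were higher. Areg (amphiregulin), a ligand of the EGF receptor known for its role in duct growth, had 57.4, 42.8 and 62.3 CPM at 4 weeks and 179, 406 and 340.1 CPM at 6 weeks (log2 2.52, SE 0.37, adjusted p = 0.0115). Neuregulin Nrg1, a ligand of Erbb3 and Erbb4, had 376, 561 and 801 against 1603, 2123 and 1659 CPM (log2 1.64, SE 0.33, adjusted p = 0.0255). Neither gene overlapped between the ages. Among chemokines and cytokines, 3 of 26 tested were higher and 2 lower (against 4.45% and 3.82% of all genes). Cxcl16 had 220.0, 232 and 202 CPM at 4 weeks and 526, 797 and 475 CPM at 6 weeks, Csf1, the growth factor of macrophages, had 9.97, 25.6 and 16.4 against 322, 75.4 and 98.8 CPM, and Cxcl12, a chemokine of stromal cells, fell from 936, 840.5 and 848 to 324, 202 and 258 CPM (log2 -1.73, SE 0.28, adjusted p = 0.0143). The interleukin 1 receptor antagonist Il1rn and the TNF family ligand Cd70 were higher from a level near detection, with at most 1.21 CPM in any 4-week library and at least 6.75 CPM in any 6-week library.

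Genes called in each of the 6 fits with a library left out were 9 in number, and were picked out after their values were seen. Besides Nqo1, Akr1b8, Gclm, Plaur and Fos they were Adm (adrenomedullin, a vasodilator peptide), with 188 CPM ± 16.2 (SD, n = 3) at 4 weeks and 1955 CPM ± 86.9 (SD, n = 3) at 6 weeks (log2 3.39, SE 0.25, adjusted p = 0.00156), Agpat2, an enzyme of triglyceride synthesis (log2 4.29, SE 0.35), Clcf1, a cytokine of the interleukin 6 family (4.26, SE 0.38), and Col9a1, a chain of collagen IX, which fell from 216 CPM ± 32.1 (SD, n = 3) to 18.4 CPM ± 3.16 (SD, n = 3) (log2 -3.54, SE 0.31, adjusted p = 0.00353).

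Among genes that were lower at 6 weeks, immediate early genes were one of the lists with the most calls. Fos had 10273, 6054 and 8235 CPM in the 4-week libraries and 754, 519 and 875 CPM in the 6-week libraries (log2 fold change -3.49, SE 0.35, adjusted p = 0.00579), and Klf2, a factor of the Krüppel family, had 164, 213 and 276 against 37.5, 25.6 and 37.9 CPM (log2 -2.68, SE 0.34, adjusted p = 0.009). The highest 6-week library stayed below the lowest 4-week library for both. The AP-1 subunits Jund and Junb, the orphan receptor Nr4a1 and the zinc finger factor Egr2 were lower by a log2 of -2.41, -1.56, -2.49 and -2.46, and Egr1, Dusp1, Btg2, Zfp36 and Socs3 were also called. Of 39 immediate early genes tested, 15 were lower (against 3.82% of all genes) and 1, the AP-1 subunit Fosl1, was higher (log2 1.67, adjusted p = 0.0181), with a median log2 fold change of -1.03. Without RU 20 were lower and 2 higher (against 13.7% and 11.1% of all genes). Myc, a member of the list, had a fold change near 0 on the log2 scale (0.02, adjusted p = 0.979).

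The contractile genes of myoepithelium were lower in part. Calponin Cnn1, which regulates actomyosin, had 3586, 3634 and 3250 CPM at 4 weeks and 761, 1450 and 996 CPM at 6 weeks (log2 -1.70, SE 0.30, adjusted p = 0.0169). Smooth muscle myosin Myh11 had 1487, 2220 and 2417 against 668, 595 and 504 CPM (log2 -1.78, SE 0.29, adjusted p = 0.0146). Oxtr, the receptor through which oxytocin triggers contraction, had 76.4, 106 and 41.4 against 5.1, 12.8 and 10.5 CPM (log2 -2.97, SE 0.54, adjusted p = 0.0181). The groups were apart in all of these. Myosin light chain Myl9 and actin Actg2 were lower too, by -1.70 and -1.78, and by -2.23 and -2.33 without RU. Of 18 contractile genes, 6 were lower (against 3.82% of all genes) and 0 higher (median log2 fold change -1.43). Without RU 11 were lower (against 13.7% of all genes). Acta2, smooth muscle actin and the best known of them, had 706, 856 and 1681 CPM at 4 weeks and 42, 455 and 95.1 CPM at 6 weeks. Its 6-week values were all below its 4-week values but spread widely, and it did not pass the test (log2 -2.47, SE 0.81, adjusted p = 0.0945). Tropomyosin Tpm1, the most abundant of the list, had 7176, 6920 and 8406 against 3740, 4888 and 4484 CPM and did not pass with RU (adjusted p = 0.0959) but did without it (adjusted p = 0.0493).

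Keratins of the basal layer differed among themselves. Krt5 was lower by a log2 of -1.77 (SE 0.25, adjusted p = 0.01), and Krt15, a keratin of basal and progenitor cells, fell from 4040, 3717 and 2347 CPM to 437, 638 and 735 CPM (log2 -2.47, SE 0.33, adjusted p = 0.00933). Krt14, the partner of Krt5 in filaments, did not pass (log2 -0.77, SE 0.27, adjusted p = 0.115). Tp63, the factor that maintains basal identity, had 134, 114 and 195 CPM at 4 weeks and 56.8, 69.8 and 17.2 CPM at 6 weeks, and did not pass with RU (log2 -1.61, SE 0.50, adjusted p = 0.0848) but did without it (log2 -1.21, adjusted p = 0.0253). In the list of basal keratins and transcription factors, 3 of 20 were lower (Krt5, Krt15 and Egr2) and 1 higher (Nrg1). The shares of all genes were 3.82% and 4.45%. Without RU 6 of the 20 were lower and 1 higher (against 13.7% and 11.1% of all genes).

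Adhesion and matrix genes were lower where they passed, and counts here stand beside the 3.82% of all genes that were lower. Integrin Itgb5, a vitronectin receptor subunit, was nearly equal in the 6-week libraries and varied more at 4 weeks, with 234, 413 and 280.4 CPM at 4 weeks and 52.9, 52.4 and 54.4 CPM at 6 weeks (log2 -2.53, SE 0.31, adjusted p = 0.00884), and it was the only one of 12 integrins called with all 6 libraries. Of 16 basement membrane genes 2 were lower, the laminin chain Lama1 (log2 -1.86, adjusted p = 0.0184) and Sparc, with 5857, 4335 and 4494 CPM at 4 weeks and 1418, 1933 and 2379 CPM at 6 weeks (log2 -1.34, SE 0.29, adjusted p = 0.0313). Of 25 genes of fibrillar matrix, 9 were lower and 0 higher (median log2 fold change -1.57). Without RU 13 were lower (against 13.7% of all genes) and 0 higher. Periostin (Postn) had 455, 1125 and 630.0 against 95.4, 44 and 70.3 CPM, biglycan (Bgn) 233, 156 and 184 against 40.6, 37.6 and 40.5 CPM, and collagen Col1a1 167, 1351 and 1693 against 86.1, 20.5 and 45.5 CPM (log2 -4.39, SE 0.90, adjusted p = 0.0262). The 4-week libraries varied more than 10-fold for Col1a1, and RU of 4 weeks was the lowest of them.

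Some markers of other cell types moved with these genes. Counts here are to be read against the 3.82% of all genes that were lower and the 4.45% that were higher. Fibroblast markers were lower in 6 of 16 tested, and in 12 of 16 without RU (against 13.7% of all genes). Their median log2 fold change was -3.27, and their summed CPM was 1919 to 7166 at 4 weeks and 369 to 857 at 6 weeks. Thy1 had 30.1, 86.5 and 41.1 CPM at 4 weeks and 1.8, 0.341 and 0.133 CPM at 6 weeks. Serpinf1 had 157, 223 and 183 against 18.4, 10.1 and 15.9 CPM, and dermatopontin (Dpt) was at 0 in all 6-week libraries, at least 71.6-fold lower when set against a floor of 3 counts over the group. Schwann cell markers were lower in 3 of 12, with summed levels of 1409 to 3110 at 4 weeks and 493 to 711 at 6 weeks, S100b having 158, 78.5 and 44.5 against 12.7, 7.23 and 4.8 CPM. Summed endothelial markers ran from 232 to 287 at 4 weeks and from 80.4 to 138 at 6 weeks, with 1 of 12 lower and 1 higher. Those were Eng (log2 -1.82) and Egfl7 (3.32). Of 21 luminal markers 1 was called, Areg, which was higher. Of 4 skeletal muscle markers 1, Acta1, was lower, and 0 of 8 pericyte, 7 adipocyte and 2 lymphoid markers tested were called. In such bulk samples fewer cells of a type and less RNA per cell cannot be told apart, and the part of these markers in the matrix result was not tested.

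Some mitochondrial and lysosomal genes were lower, while most members of their lists did not pass the test. Of all genes, 3.82% were lower, or 13.7% without RU. The lists of mitochondrial oxidation and of lysosomal genes were written after values were seen. Hibadh, of valine breakdown, was even within each age, with 302, 318 and 275 CPM at 4 weeks and 47.6, 48.6 and 43.3 CPM at 6 weeks (log2 -2.67, SE 0.26, adjusted p = 0.00579). Idh2, the mitochondrial isocitrate dehydrogenase that makes NADPH, had 204, 232 and 168 against 51.6, 35.1 and 40.9 CPM (log2 -2.23, SE 0.31, adjusted p = 0.00994). Of 38 genes of branched-chain amino acid and fatty acid oxidation and neighbouring mitochondrial steps, 15 were lower and 0 higher (median log2 fold change -1.51), and without RU 25 were lower and 1 higher. Of 47 genes of oxidative phosphorylation 5 were lower, among them Ndufs1 of complex I, Uqcrc2 of complex III and Atp5c1 of the ATP synthase, with log2 fold changes of -1.60, -1.36 and -1.36, and the median was -0.43, or -0.81 with 20 lower without RU. Of 42 lysosomal hydrolases and their cofactors 13 were lower, and 1, Ctsl, was higher, with a median of -1.47. Ppt1, which removes palmitate from proteins, had 105, 104 and 108 CPM at 4 weeks and 23.2, 25.4 and 14.7 CPM at 6 weeks (log2 -2.32, SE 0.34, adjusted p = 0.0122), and the ceramidase Asah1 had 136, 112 and 111 against 29.7, 36.4 and 26.9 CPM (log2 -1.94, SE 0.30, adjusted p = 0.0137). Groups were apart for all genes named with their libraries here.

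Cell cycle genes showed little with all 6 libraries and more without RU, a fit in which more of all genes were called. With all 6 libraries 4.45% of all genes were higher and 3.82% lower. Of 51 S phase genes 0 were higher and 1, the single-stranded DNA binding protein Rpa1, was lower, with a median log2 fold change of -0.28. Of 51 G2/M genes 1, the checkpoint protein Bub3, was higher and 0 were lower, with a median of -0.31. Without RU 12 of 51 S phase genes and 20 of 51 G2/M genes were lower, 0 and 2 were higher, and the medians were -1.15 and -1.67. In that fit 13.7% of all genes were lower and 11.1% higher, and their median was -0.07. The summed G2/M level was 2421 CPM in RU and 653 to 1021 CPM in the other wild-type basal libraries of these ages. Of 20 cell cycle inhibitors and D cyclins, Cdkn1c (p57), a maternally expressed inhibitor of the p27 family, was lower, with 224, 244 and 228 CPM at 4 weeks and 63.8, 74.8 and 78.3 CPM at 6 weeks (log2 -1.67, SE 0.26, adjusted p = 0.0137). Cdkn1b had 42.6, 16 and 23.2 CPM at 4 weeks and 21, 24.1 and 3.33 CPM at 6 weeks, which overlapped (log2 -0.74, SE 0.75, adjusted p = 0.576).

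Signalling lists held few calls, to be read against the 4.45% of all genes that were higher and the 3.82% that were lower. Of 18 Notch pathway genes the receptors Notch1 and Notch2 were higher (log2 1.77 and 1.53, adjusted p = 0.0247 and 0.0478), while the target Hes1 fell from 661, 309 and 369 CPM to 128, 102 and 54.1 CPM (log2 -2.22, SE 0.42, adjusted p = 0.0213). Of 32 TGF-beta and BMP genes the signal transducer Smad3 (13.5, 20.6 and 24.6 against 146, 135 and 144 CPM, log2 2.87, SE 0.35, adjusted p = 0.00827) and Ltbp1, which holds latent TGF-beta in the matrix (log2 2.17, adjusted p = 0.045), were higher and 0 were lower. In the Wnt and stem-like list 1 of 23 was lower, the secreted protein Dkk3 (637, 792 and 688 against 185, 231 and 129 CPM). The binding proteins of insulin-like growth factors Igfbp5 and Igfbp4 fell by 2.21 and 2.61 on the log2 scale (adjusted p = 0.0146 and 0.0174). Without RU, 3 of 19 Notch genes were higher and 3 lower, and the median of that list moved from 0.31 to -0.50. Of the 32 TGF-beta and BMP genes, 2 were then higher and 4 lower. In that fit 11.1% of all genes were higher and 13.7% lower.

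The lipid synthesis and milk lists held few calls, to be read against the 4.45% of all genes that were higher and the 3.82% that were lower. Fatty acid synthase Fasn had 19.5, 34.8 and 40.4 CPM at 4 weeks and 155, 99.9 and 94.5 CPM at 6 weeks (log2 1.89, SE 0.40, adjusted p = 0.0285), whereas the desaturase Fads1 had 93.3, 133 and 132 against 24.1, 9.75 and 4.13 CPM (log2 -3.22, SE 0.63, adjusted p = 0.0227). They were the only calls among 31 genes of lipid synthesis, 1 in each direction. In the milk list of 9, the lipid droplet coat Plin2 was higher (334, 501 and 410.1 against 797, 3400 and 1116 CPM) and Mfge8 lower (1648, 2538 and 2356 against 829, 1077 and 973 CPM).

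**Figure D3:**
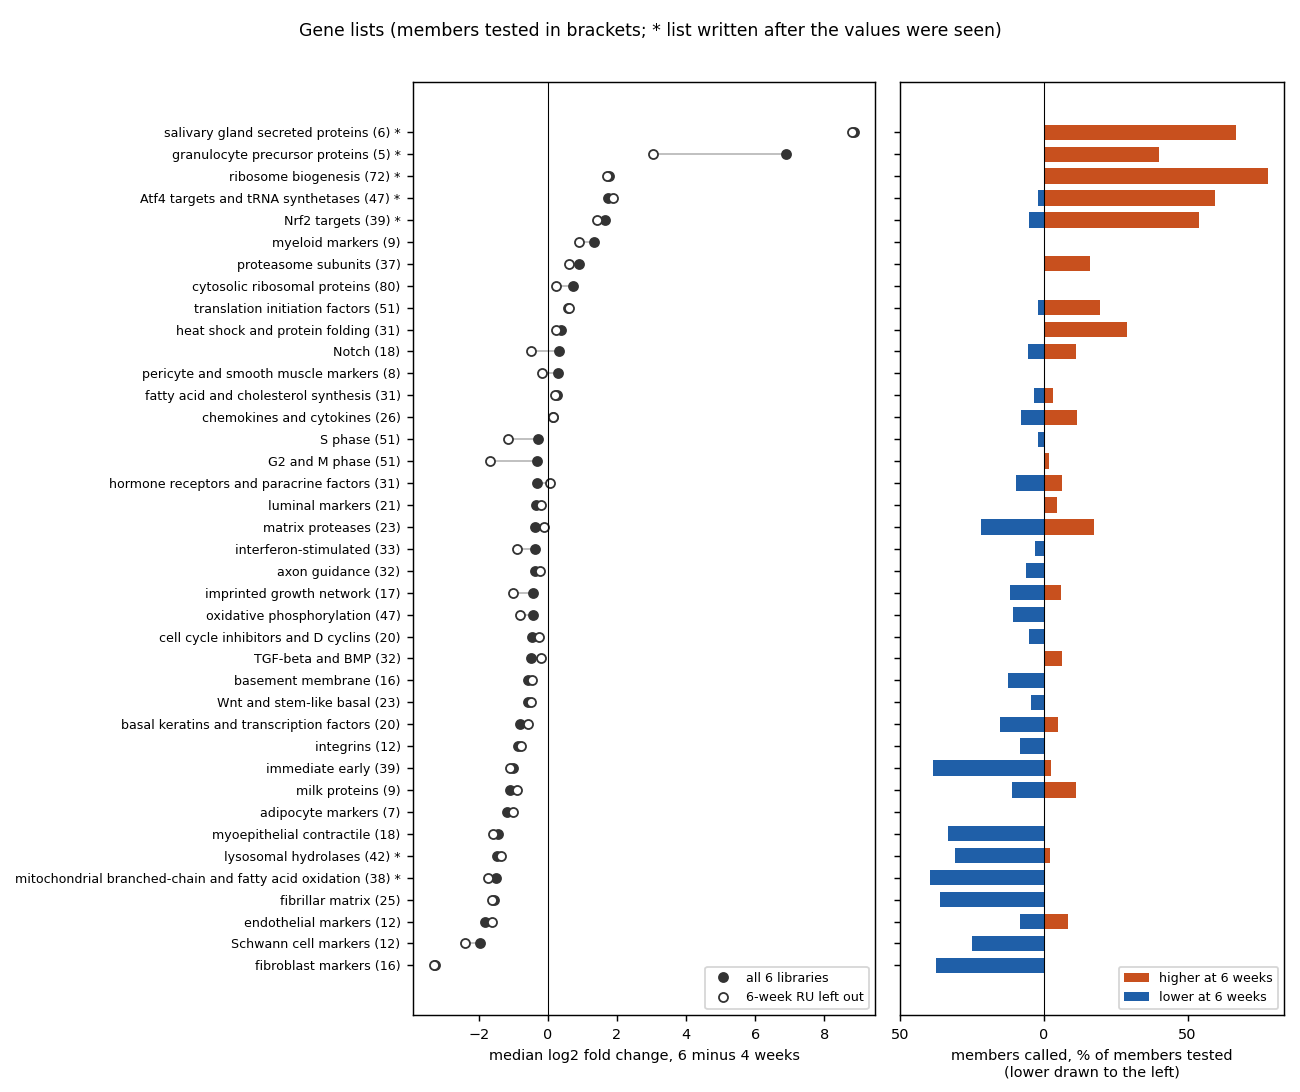
Median log2 fold change, 6 minus 4 weeks, of each gene list with at least 5 members tested (left, x axis; filled points, all 6 libraries; open points, RU of 6 weeks left out), and the percentage of tested members called higher or lower (right, x axis), with the number tested in brackets and an asterisk on lists written after values were seen. Ribosome biogenesis, Atf4 and Nrf2 lists have medians between 1.66 and 1.76, and fibroblast markers have the lowest median, -3.27.

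The largest fold changes in each direction belonged to genes at or near 0 in one group. Among higher genes, the salivary secretory genes Amy1a, Bpifa2, Csap1 and Prpmp5 followed RM and RU in basal cells. Csap1 was also present in luminal libraries that held little Amy1a. Without TMM it had 67.6 to 75.2 CPM in those of 4 weeks and 301 CPM in LU of 6 weeks, where Amy1a had at most 7.23 CPM. Amy1a (amylase) had 138, 5.18 and 167 CPM in RM, LU and RU and at most 0.0503 CPM at 4 weeks, and the luminal library of RM had 4800 CPM without TMM, the highest of the libraries examined. Prpmp5 was at 0 in all 4-week libraries and at least 389.95-fold higher at 6 weeks. In the 6-week Cdkn1b-/- basal libraries the summed salivary list came to 9.07 and 1.54 CPM. Among lower genes, Islr, an immunoglobulin-repeat protein of mesenchymal cells, had 12.4, 25.1 and 9 CPM at 4 weeks and was at 0 in all 6-week libraries, at least 183-fold lower. Klhl36, with 10, 15.2 and 13.6 CPM, Zc4h2, with 15.5, 9.31 and 11.8 CPM, and Ugt8, a galactosyltransferase of myelin lipids, with 13.6, 7.19 and 4.26 CPM, were likewise at 0 in all 6-week libraries and at least 153-fold, 145-fold and 101-fold lower. Ttc8, a subunit of the BBSome of cilia, had 22.7, 27.5 and 22.4 CPM at 4 weeks and 0.075, 0.477 and 0 CPM at 6 weeks. Also among the largest were Gdf10, Vstm4, Rarres1, Iqgap3, Kcnmb1, Capn5 and Adck3, with means between 7.89 and 44.3 CPM at 4 weeks and below 0.6 CPM at 6 weeks.

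The same ages were then compared in Cdkn1b-/- basal cells, which have 2 libraries of each age and share no library with the wild-type comparison. Cdkn1b itself had between 10.5 and 11.5 CPM in them, but reads outside a small deletion are still counted, so its level checks the genotype little. In a fit of the 10 basal libraries with edgeR, 0 of 12060 genes (0%) were called between ages in Cdkn1b-/- cells, with 328 at an unadjusted p under 0.05, and DESeq2 called 11. The 2 Cdkn1b-/- libraries of 4 weeks differed more than any other pair within a group (chi-square per degree of freedom 389). With so few libraries and this spread, 0 calls do not show that no gene changed. The genes called higher in wild-type cells had a median log2 fold change of 0.30 in Cdkn1b-/- cells, with 341 of 494 above 0, and those called lower had a median of -0.59, with 365 of 424 below 0, beside a median of -0.04 over all 12060 genes. The difference between genotypes in the age effect was called for 3 genes of 12060 (0.0249%), with 1170 at an unadjusted p under 0.05, and DESeq2 called 205. The 3 were Nqo1, with 71.6 and 30.3 CPM at 4 weeks and 76.9 and 29.3 CPM at 6 weeks in Cdkn1b-/- cells (difference of log2 fold changes, wild-type minus Cdkn1b-/-, 5.56, SE 0.72, adjusted p = 0.0254), Akr1b8, with 3.52 and 1.35 against 3.28 and 2.95 CPM (8.47, SE 0.91, adjusted p = 0.0119), and Gclm, with 79.6 and 47 against 60.2 and 34.7 CPM (5.00, SE 0.59, adjusted p = 0.0154). In each of these, Cdkn1b-/- cells overlapped between the ages while wild-type cells did not. The count fell to 0 without LUD of wild-type 4 weeks or without either Cdkn1b-/- library of 6 weeks, and to 1 without RU or LUU of wild-type 4 weeks. Without RU of 6 weeks 16 genes were called, 6 higher and 10 lower, the 3 genes among them and Adm (3.69, adjusted p = 0.0345) as well.

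In 5 lists set side by side after their values were seen, the Cdkn1b-/- medians were nearer 0 than the wild-type medians. That of the Nrf2 list was -0.19 in Cdkn1b-/- cells and 1.70 in wild-type cells of the same fit, with 16 and 34 of 39 members above 0. For Atf4 targets and tRNA synthetases they were 0.40 and 1.78, with 37 and 42 of 47 above 0, and for ribosome biogenesis 0.22 and 1.80, with 50 and 72 of 72 above 0. Immediate early genes had -0.47 and -0.98, and contractile genes -0.68 and -1.40. Fos had 10279 and 6282 CPM at 4 weeks and 1692 and 2827 CPM at 6 weeks in Cdkn1b-/- cells, so that these groups did not overlap either, and its difference between genotypes was not called (-1.57, adjusted p = 0.457). Krt5, by contrast, had 1163 and 1335 against 1389 and 1320 CPM, but with a difference of -1.85 it did not pass the test between genotypes (adjusted p = 0.266). For genes other than the 3, this fit of all 10 libraries does not show that a change called in wild-type cells differs from that in Cdkn1b-/- cells.

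**Figure D4:**
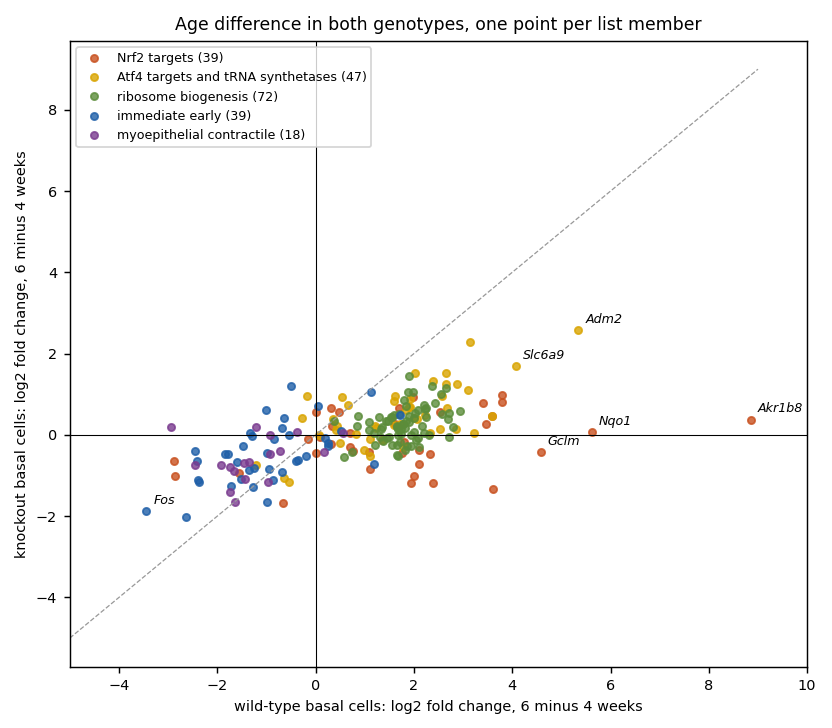
Log2 fold change, 6 minus 4 weeks, in Cdkn1b-/- (KO) basal cells (y axis) against that in wild-type basal cells (x axis), both from the fit of the 10 basal libraries, 1 point per tested member of 5 lists, with the line of equal change dashed. Ribosome biogenesis genes lie to the right of 0 in all 72 cases, and Nqo1, Gclm and Akr1b8 lie far to the right near 0 on the y axis.

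At 9 weeks, 2 wild-type basal libraries show the levels at a later age. They are described and not tested here. They had 26392587 and 23926716 reads counted on genes, more than any library of the younger ages, and the 6-week libraries had the fewest. What depth contributes to the levels compared here was not tested. Nqo1 had 23.8 and 15.4 CPM, Gclm 33.4 and 23 CPM, Ppan 43.4 and 28.3 CPM and Plaur 20.2 and 86.3 CPM, all closer to 4 weeks than to 6 weeks. Fos had 5038 and 5088 CPM, Cnn1 2535 and 3661 CPM, Hibadh 227 and 152 CPM and Itgb5 233 and 296 CPM, again nearer to 4 weeks. The mean at 9 weeks was nearer that at 4 weeks than that at 6 weeks for 443 of the 494 genes called higher (89.7%) and for 342 of the 424 called lower (80.7%), and for 7299 of all 11091 genes tested (65.8%). Genes were called for their difference between 4 and 6 weeks, so these shares are a description. There were exceptions. Cdkn1c had 35.9 and 46.9 CPM at 9 weeks, below both younger ages, Fasn had 209 and 169 CPM, above both, and Hmox1 had 870.0 and 1089 CPM, below both.

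**Figure D5:**
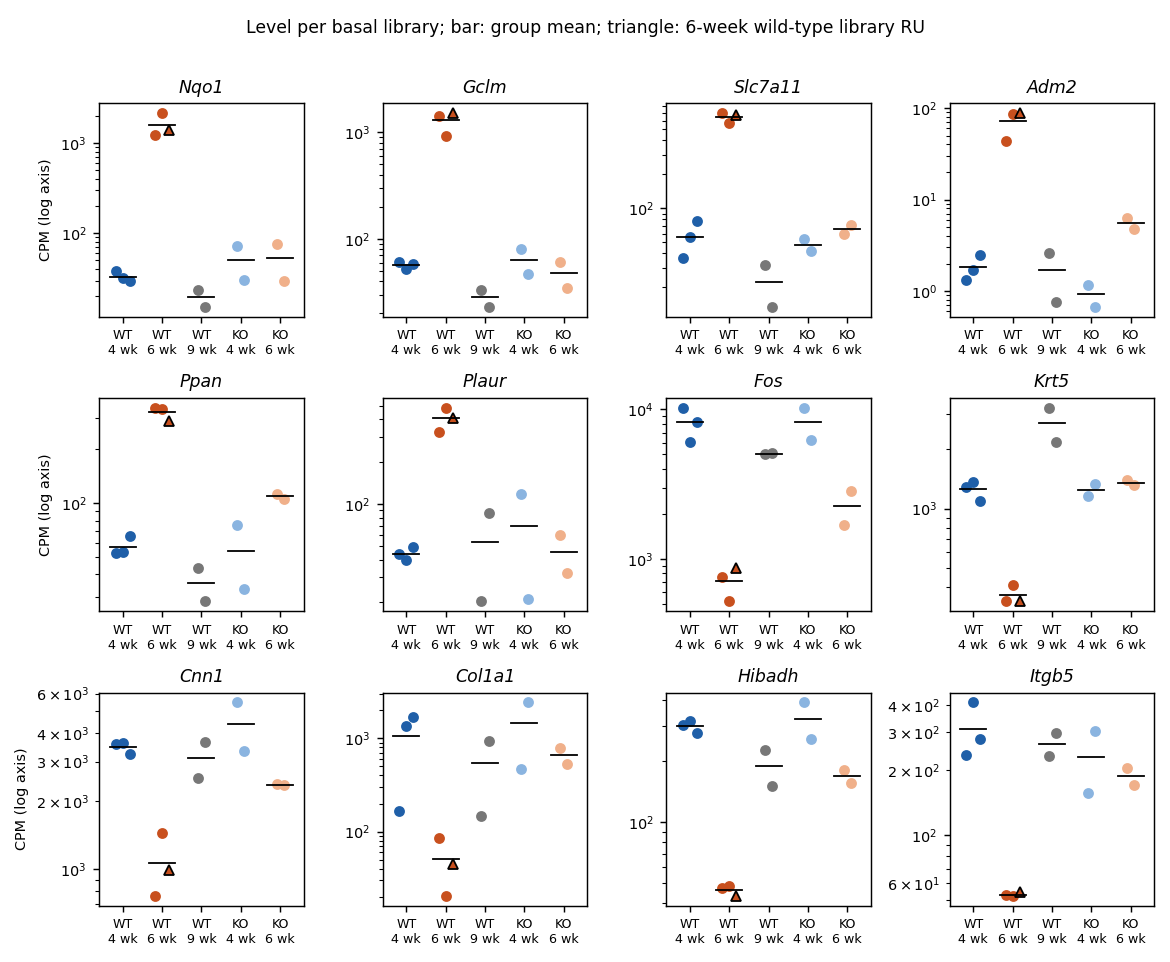
CPM (log y axis) of 12 genes in each basal library, by group (x axis), with bars for group means, WT for Cdkn1b+/+, KO for Cdkn1b-/- and a triangle for RU of 6 weeks. Wild-type and KO levels were scaled in separate sets of libraries. In each panel the wild-type 6-week libraries lie apart from those of 4 weeks, for example 1222 to 2130 CPM against 30 to 38 CPM for Nqo1.

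Luminal cells were sorted from 5 of the same animals by their tags, 3 of 4 weeks and 2 of 6 weeks. In a fit of the 11 wild-type libraries, 634 of 12279 genes (5.16%) were called between ages in luminal cells, 297 higher (2.42%) and 337 lower (2.74%). The difference of the age effect between basal and luminal cells was called by edgeR for 0 genes (0%), with 1557 at an unadjusted p under 0.05, and DESeq2 called 480. Nqo1 had 44, 37.3 and 45.6 CPM in luminal libraries of 4 weeks and 562 and 288 CPM at 6 weeks (log2 3.33, adjusted p = 0.00225), and Akr1b8 had 2.23, 1.51 and 2.55 against 1134 and 283 CPM (log2 8.39, adjusted p = 0.000578). Both rose in luminal as in basal cells. Fos, too, was lower in luminal cells, with 13418, 8515 and 9334 against 1930 and 1379 CPM (log2 -2.66, adjusted p = 0.00854). In luminal cells the Nrf2 list had 10 higher and 1 lower, the Atf4 list 16 higher and 1 lower, ribosome biogenesis 7 higher and 0 lower and immediate early genes 1 higher and 11 lower, with medians of 0.38, 1.15, 0.60 and -1.25. These luminal values rest on few libraries, and without luminal RM of 6 weeks, the library with the most salivary reads, 4 genes were called.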

How the data were processed

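The authors aligned single-end reads to the rat genome rn6 with STAR 2.5.1b (per the submitters' processing notes) and counted them on refGene genes with htseq-count. Values as deposited are raw counts per gene, 1 file a library, not normalized. Reads aligned to more than 1 place, 37.3% to 44.5% of the reads listed in the 6 libraries compared, were not counted on genes, and the strand setting of the counting is not given in the sources used here. Rows that name no gene, which hold these and other unassigned reads, were left out.

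Genes with low counts were removed with filterByExpr, libraries were scaled by TMM, and ages were compared with edgeR 4.0.16 (quasi-likelihood test, R 4.3.3) within the 6 wild-type basal libraries, with Benjamini-Hochberg adjustment at 0.05. Basal libraries of both genotypes (10) and wild-type libraries of both cell types (11) were fitted for the differences between age effects. CPM of wild-type basal libraries was scaled over the 8 such libraries of 4, 6 and 9 weeks, of Cdkn1b-/- libraries over the 10 basal libraries, and of luminal libraries over the 11 wild-type libraries. Summed levels of lists are sums of these scaled CPM. The tests were run on simulated counts with planted changes, to check the sign and size they returned. No outlying library such as RU was simulated, so the error rate in these data was not checked. In 13 pairs of libraries of a group none was a duplicate (lowest chi-square per degree of freedom 43.0).

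Genes named are up to 12 per direction with the largest change among called genes with a mean log2 CPM over 2 and groups that do not overlap, in each list up to 4 called members by adjusted p and up to 3 by level, Cdkn1b and basal markers. Further list members are named with their fold change alone. The libraries and the 35 first lists were chosen with earlier results of these data known, and 7 more lists (Nrf2 and Atf4 targets, ribosome biogenesis, mitochondrial oxidation, lysosomal, salivary and granulocyte genes) were written after these values were seen, so their counts support nothing by themselves.

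Basal and luminal libraries with the same tag are taken as the same animal. Their deviations from group means correlated across genes with r from 0.084 to 0.27 in 5 pairs. Alternatives were RLE and upper quartile scaling, other filters, DESeq2 1.42.0, limma 3.58.1 with voom and a block, thinned counts, other sets of libraries and leaving out each library. Fits without RU and of the Cdkn1b-/- libraries alone were added after seeing the data. Promoters were matched by symbol or synonym (485 by synonym) and cover 81.4% of tested genes. Figures were drawn with matplotlib 3.10.9 in Python 3.11.15. ChIP-seq and other libraries were not used here.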

Additional observations from a re-analysis of the deposited data

Results flagged for a closer look

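The age effect differed between genotypes in basal cells for 3 genes, by the test of the difference itself (edgeR's quasi-likelihood test, adjusted over 12060 genes). For Akr1b8 the log2 fold change of 6 against 4 weeks was 8.47 larger in Cdkn1b+/+ than in Cdkn1b-/- cells. For Nqo1 the difference was 5.56 and for Gclm 5.00. None of the 6-week wild-type values of these genes overlapped with any Cdkn1b-/- value, and the lowest wild-type 6-week and highest Cdkn1b-/- values were 1222 and 76.9 CPM for Nqo1, 934 and 79.6 CPM for Gclm, and 231 and 3.52 CPM for Akr1b8. With 1 library left out the number of genes called ran from 0 to 19, and it was 0 without LUD of wild-type 4 weeks or without either Cdkn1b-/- library of 6 weeks. No group held enough libraries for a check of single outlying samples, so RU of 6 weeks was judged by its values alone.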

How the results depend on the processing

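The count of 918 wild-type basal genes was 877 with upper quartile scaling, where 383 were higher and 494 lower and the median of all genes was -0.18, against 494 higher, 424 lower and -0.06 with TMM. It was 2331 with DESeq2 and 1653 in the fit of the 11 wild-type libraries. Leaving out 1 library gave from 9 to 2857, with 106 without RU, 9 without LUD and 35 without LUU of 4 weeks, and 337 without RM, 348 without LU and 2857 without RU of 6 weeks. Without RU it was 2244 in the fit of the basal libraries and 3913 with DESeq2. Thinning all libraries to the smallest gave 942. In Cdkn1b-/- cells DESeq2 called 11 genes, and edgeR 0 in each fit with a library left out. The 3 differences between genotypes became 205 with DESeq2, 5 without a filter, 16 without RU and from 0 to 19 with 1 library left out, being 19 without LU and 5 without RM of wild-type 6 weeks, 8 without RM of Cdkn1b-/- 4 weeks, 1 without RU or LUU of wild-type 4 weeks, and 0 without LUD of wild-type 4 weeks or without either Cdkn1b-/- library of 6 weeks. For luminal cells 634 became 2023 with DESeq2 and from 4 to 2160 with 1 library left out, 4 without luminal RM, 280, 88 and 137 without luminal RU, LUD and LUU of 4 weeks, 347 and 368 without basal LUD and LUU, and 2160 without basal RU of 6 weeks. With the animal as a replicate block in limma, 1120 were called (block correlation 0.359). The 0 differences between cell types became 480 with DESeq2, 3 with RLE scaling, 8 with the animal as a replicate block (3 residual degrees of freedom) and from 0 to 126 with 1 library left out, 126 without basal RU, 35 without basal LU, 5 without basal RM and 48 without luminal LU of 6 weeks. The cause of these shifts was not tested. The block was fitted for these results with both cell types alone, since basal libraries share no animal among themselves. Of 104 called genes followed, none changed sign in any alternative, and the calls lost were 4 with upper quartile scaling, 3 without a filter, 2 and 5 in the fits of the 10 and the 11 libraries, 1 after thinning and up to 99 with a library left out. Depth limits genes near 0 at 6 weeks, where libraries were shallower, and 3 libraries per age limit the rest.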
